A study of Caenorhabditis elegans with 8 samples.

Results

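The pharynx of Caenorhabditis elegans, the pumping organ with which the worm feeds, and the body wall, with which it crawls, are built from different muscle proteins. This account follows 10 genes chosen by name, 6 for pharyngeal muscle (myo-1, myo-2, myo-5, tnc-2, tni-4 and tnt-4) and 4 for body wall muscle (myo-3, unc-54, unc-15 and lev-11). A gene was taken where its symbol stood in the deposited count tables. Of the 10 genes, 9 had a row, 1 row each, among 14396 transcripts in all, and tnt-4, the pharyngeal troponin T, had none. All 9 passed the filter on low counts, lev-11 through 1 group alone, given below.

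RNA was measured in whole worms of the Bristol strain at the fourth larval stage (L4), raised at 22 °C, in 16 libraries of 8 groups with 2 libraries each. Worms labelled damt-1, mutant for a gene named for DNA adenine methylation, and wild type worms were each untreated or grown on agar that held antimycin A at 1.92 µM, a drug that blocks complex III in mitochondria and so their respiration. The treated worms carry the labels P0, F1 and F2, the usual names of a parental generation and the next generations, and the labels give exposure both from eggs and from the first larval stage. Nothing in the labels names the damt-1 allele or says whether the 2 libraries of a group came from separate cultures, so a p-value here reflects no more than library-to-library spread, possibly technical.

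In muscle, myosin heavy chains form the thick filaments that pull on thin filaments of actin, tropomyosin and troponin, and calcium bound to troponin C starts the contraction. The pharynx makes its own heavy chains, among them those of myo-1 and myo-2, and its own troponins. Body wall muscle uses the heavy chains of myo-3, called MHC A, and unc-54, called MHC B, on a core of paramyosin, the product of unc-15, while lev-11 encodes tropomyosin in many forms. In whole-worm RNA, fewer cells of a type and less RNA per cell cannot be told apart.

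Levels are in CPM, the count scaled to the size of the library with the trimmed-mean factors of edgeR. Differences are log2 fold changes ± SE from 1 edgeR quasi-likelihood fit over all 16 libraries, and a gene is said to have risen or fallen where the Benjamini-Hochberg adjusted p over all transcripts of the comparison was under 0.05. The 3 treated groups of a genotype share the same untreated libraries, so their differences from untreated are not independent of each other. Library totals ran from 3541390 to 4365451 counts. The damt-1 transcript itself averaged 19.4 ± 3.4 CPM in untreated damt-1 worms and 19.8 ± 0.25 CPM in untreated wild type worms (SD, n = 2 each), and without the allele's position this level does not check the label.

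The pharyngeal myosin heavy chains varied with treatment and with genotype, while the body wall heavy chains stayed within narrow ranges. In both genotypes myo-1, myo-2 and, with 1 exception, myo-5 rose under antimycin A, and in untreated worms all 3 were lower in damt-1 than in wild type. The pharyngeal troponin tni-4 rose in F1 and F2 of wild type by less, and tnc-2 passed no test. Among the body wall genes, myo-3 was higher in damt-1 than in wild type in all 4 conditions, and unc-54 and unc-15 ranged over 0.18 and 0.17 on the log2 scale across the 8 group means.

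**Figure D1:**
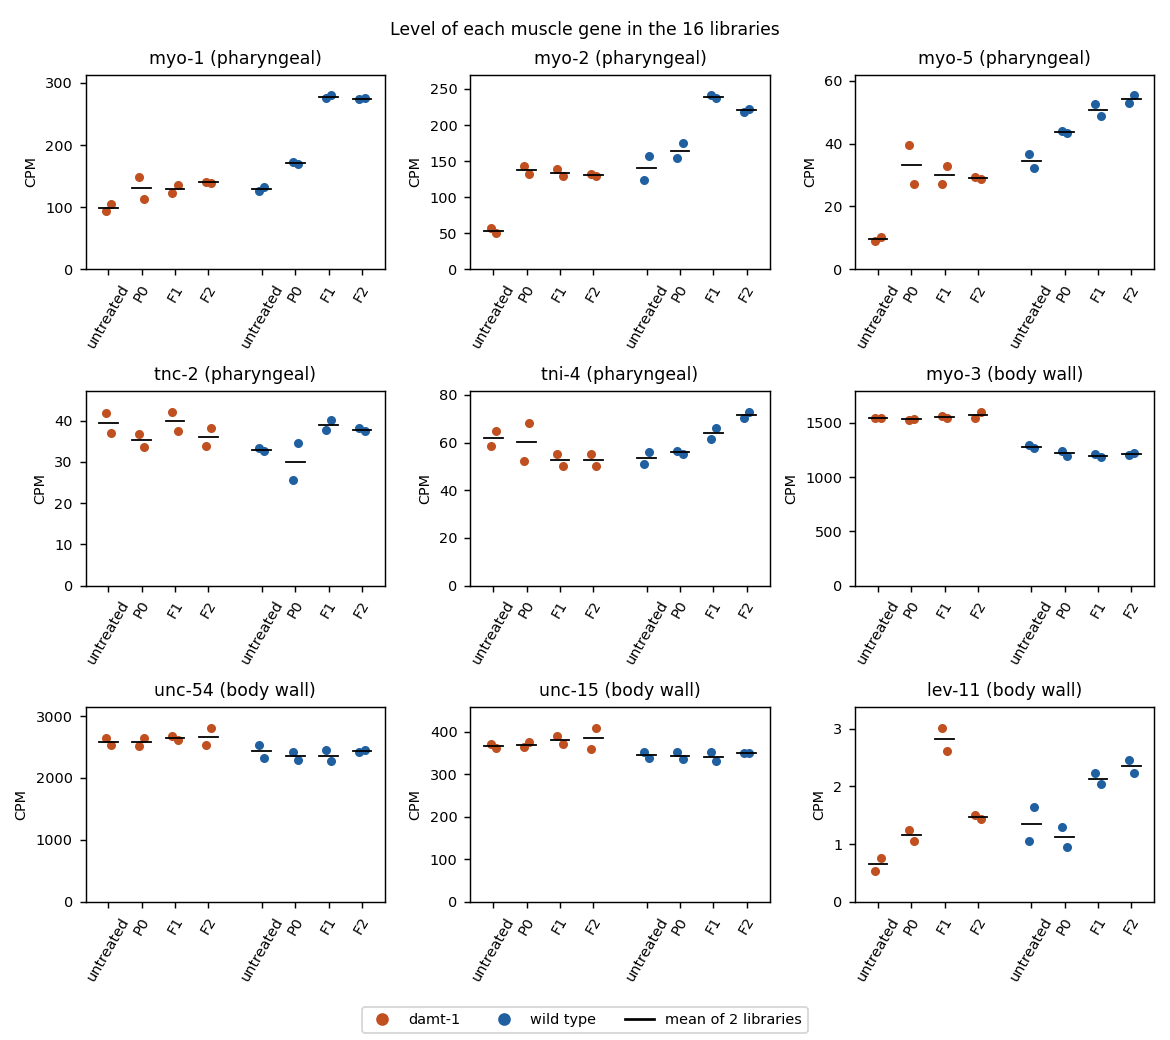
Level of the 9 listed muscle genes in CPM (vertical axis, from 0) in the 16 libraries. Each point is a library, each bar the mean of 2, and untreated, P0, F1 and F2 follow in order for damt-1 and then wild type. The 3 pharyngeal myosins are lowest in untreated damt-1 libraries, and unc-54 and unc-15 differ little between groups.

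Of the pharyngeal heavy chains, myo-1 responded most in wild type. In damt-1 worms it had 93.3 and 105 CPM in untreated libraries, 148 and 113 CPM in P0, 123 and 135 CPM in F1, and 141 and 139 CPM in F2. In wild type worms it had 126 and 132 CPM in untreated libraries, 173 and 170 CPM in P0, 275 and 280 CPM in F1, and 274 and 276 CPM in F2. Within each genotype, every treated library lay above both untreated ones, and the F1 and F2 libraries of wild type stood above all others. In damt-1 worms myo-1 rose by 0.40 ± 0.09 in P0 (adjusted p = 0.0023), 0.38 ± 0.09 in F1 (adjusted p = 0.0044) and then 0.50 ± 0.09 in F2 (adjusted p = 0.00024). In wild type it rose by 0.41 ± 0.08 in P0 (adjusted p = 0.00035), 1.10 ± 0.07 in F1 (adjusted p = 4.7e-12) and then 1.09 ± 0.07 in F2 (adjusted p = 6.5e-12). The P0 call in damt-1 was lost without its first P0 library, where the difference was 0.19 (adjusted p = 0.2), and with only the groups compared. The F1 call was lost without the second F1 library of damt-1, and both calls without its first untreated library. The F1 and F2 responses differed between the genotypes, by -0.72 ± 0.12 and -0.59 ± 0.11 for damt-1 minus wild type (adjusted p = 2e-05 and 0.0002). At P0 that difference was -0.01 ± 0.12, with a 95% interval of -0.24 to 0.22.

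Expression of myo-2, the heavy chain whose promoter is widely used to mark the pharynx, showed the opposite order of response. In damt-1 worms it had 56.7 and 49.7 CPM in untreated libraries, 143 and 132 CPM in P0, 139 and 129 CPM in F1, and 132 and 129 CPM in F2. In wild type worms it had 123 and 156 CPM in untreated libraries, 154 and 176 CPM in P0, 241 and 237 CPM in F1, and 219 and 222 CPM in F2. The untreated damt-1 libraries lay far below the other 14, and in wild type the P0 and untreated libraries overlapped. In damt-1 worms myo-2 rose by 1.38 ± 0.10 in P0 (adjusted p = 3.7e-10), 1.33 ± 0.11 in F1 (adjusted p = 8.5e-10) and then 1.3 ± 0.11 in F2 (adjusted p = 1.7e-09). The rises in wild type were 0.23 ± 0.08 in P0 (adjusted p = 0.039), 0.77 ± 0.07 in F1 (adjusted p = 4.8e-09) and then 0.65 ± 0.07 in F2 (adjusted p = 1.1e-07). The response was larger in damt-1 by 1.15 ± 0.13, 0.57 ± 0.13 and 0.65 ± 0.13 at P0, F1 and F2 (adjusted p = 3.8e-07, 0.0012 and 0.00037). The P0 rise in wild type was lost under 8 of 25 alternatives, among them the fits without the first untreated library (0.08 to 0.42 over all alternatives) and without the second P0 library.

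The least abundant of the heavy chains, myo-5, moved in the same directions as myo-2. In damt-1 worms it had 8.90 and 10.4 CPM in untreated libraries, 39.5 and 27.1 CPM in P0, 27.1 and 32.7 CPM in F1, and 29.5 and 28.6 CPM in F2. In wild type worms it had 36.7 and 32.1 CPM in untreated libraries, 44.0 and 43.4 CPM in P0, 52.5 and 48.7 CPM in F1, and 53.0 and 55.3 CPM in F2. The untreated damt-1 libraries held 33 and 41 counts, below every other library, and 1 P0 library of damt-1 lay above the untreated wild type libraries. In damt-1 it rose by 1.79 ± 0.19 in P0 (adjusted p = 2.1e-07), 1.63 ± 0.20 in F1 (adjusted p = 1.5e-06) and then 1.58 ± 0.20 in F2 (adjusted p = 2.5e-06). In wild type the difference was 0.35 ± 0.14 in P0, which missed the threshold (adjusted p = 0.081), and the F1 and F2 rises were 0.56 ± 0.13 and 0.66 ± 0.13 (adjusted p = 0.0014 and 0.00026). The response was larger in damt-1 by 1.44 ± 0.24, 1.07 ± 0.25 and 0.93 ± 0.25 at P0, F1 and F2 (adjusted p = 8.2e-05, 0.0012 and 0.0042).

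Of the pharyngeal troponins, tni-4 rose in wild type F1 and F2, and tnc-2 passed no test. Troponin I of tni-4, the inhibitory subunit, had 58.5 and 64.9 CPM in untreated damt-1 libraries, 52.2 and 68.2 CPM in P0, 55.0 and 50.01 CPM in F1, and 55.2 and 49.98 CPM in F2. In wild type it had 51.1 and 55.9 CPM in untreated libraries, 56.4 and 55.4 CPM in P0, 61.6 and 66.1 CPM in F1, and 70.3 and 73.0 CPM in F2. The F1 and F2 libraries of damt-1 lay below its untreated ones, while those of wild type lay above. In wild type the F1 rise of tni-4 was 0.25 ± 0.10 (adjusted p = 0.049) and the F2 rise 0.42 ± 0.10 (adjusted p = 0.0018), and the F1 rise held in only 7 of 25 alternatives. In damt-1 the F1 and F2 differences were -0.24 ± 0.11 and -0.23 ± 0.11 (adjusted p = 0.19 and 0.2). The responses of the genotypes differed by -0.49 ± 0.15 at F1 and -0.65 ± 0.15 at F2 (adjusted p = 0.012 and 0.0013), and the F1 call held in 19 of 25 alternatives. Troponin C of tnc-2, the calcium-binding subunit, ranged from 33.7 to 42.2 CPM in the damt-1 libraries and from 25.6 to 40.1 CPM in the wild type libraries. It passed the test in none of the 17 comparisons, and the nearest was wild type F1 against P0, at 0.37 ± 0.13 (adjusted p = 0.052). In a current genome annotation 19.2% of the exon bases of tnc-2 are shared with clec-143 and 1.9% of those of tni-4 with Y59E9AL.36. The counts of tnc-2 and tni-4 can thus hold reads of those genes.

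Of the 5 listed pharyngeal genes, 3 rose and none fell in each treated group of damt-1. Over all transcripts tested in damt-1, 8.41% rose and 5.68% fell in P0, 7.69% rose and 5.53% fell in F1, and in F2 7.9% rose and 5.84% fell. In wild type 2 of 5 rose in P0, where 13.0% of all transcripts rose and 8.14% fell. There 4 of 5 rose in F1, against 26.2% of all transcripts higher and 20.7% lower, and 4 of 5 rose in F2, against 25.9% higher and 21% lower. The median differences of the 5 were 0.40, 0.38 and 0.50 in P0, F1 and F2 of damt-1 and 0.23, 0.56 and 0.65 in wild type, beside medians over all transcripts between -0.005 and 0.026.

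**Figure D2:**
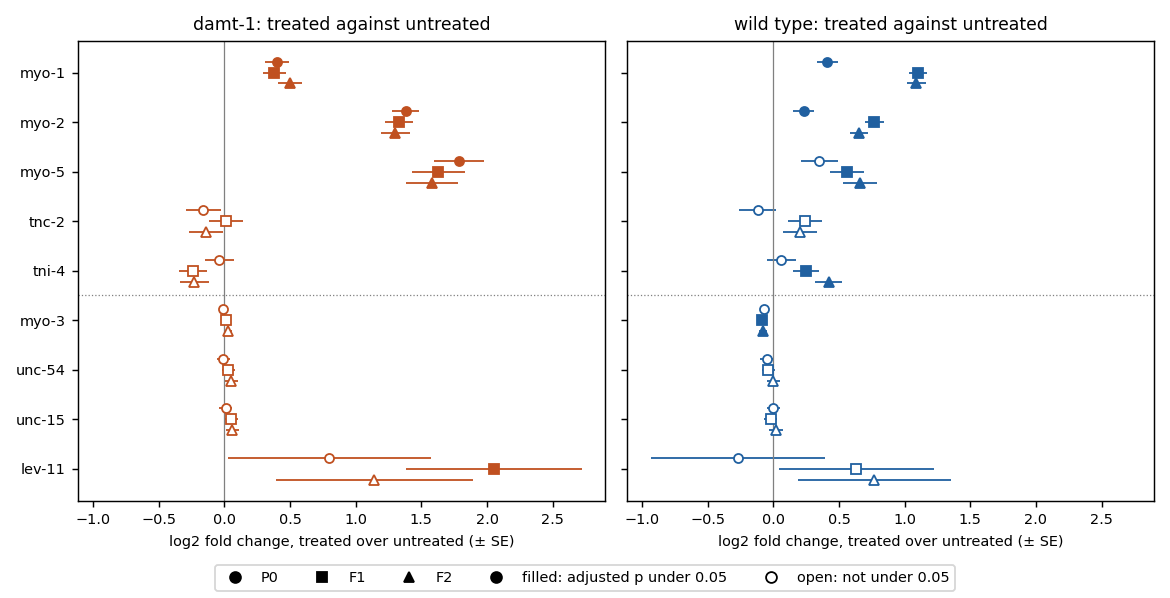
Log2 fold change of treated over untreated worms (horizontal axis) for each gene, pharyngeal above the dotted line and body wall below, in damt-1 (left) and wild type (right). Points are fitted values with SE bars, shaped by generation and filled where the adjusted p is under 0.05. Changes of myo-2 and myo-5 are larger in damt-1, those of myo-1 in F1 and F2 larger in wild type, and myo-3, unc-54 and unc-15 sit near 0.

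Among the body wall genes, unc-54, the major heavy chain, hardly differed. It had 2638 and 2533 CPM in untreated damt-1 libraries, 2509 and 2638 CPM in P0, 2676 and 2609 CPM in F1, and 2533 and 2806 CPM in F2. In wild type it had 2539 and 2330 CPM in untreated libraries, 2425 and 2287 CPM in P0, 2447 and 2277 CPM in F1, and 2420 and 2455 CPM in F2. Treated and untreated libraries overlapped in both genotypes. None of the 6 treated differences passed the test, and they ran from -0.05 ± 0.05 in wild type P0 to 0.05 ± 0.05 in damt-1 F2, whose 95% interval was -0.05 to 0.14. Paramyosin, unc-15, was as even, at 360 to 409 CPM in the damt-1 libraries and 330 to 353 CPM in the wild type libraries, with treated differences between -0.02 and 0.06.

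For myo-3, the heavy chain at the centre of the thick filament, the libraries separated by genotype, and within wild type also by treatment. It had 1542 and 1544 CPM in untreated damt-1 libraries, 1532 and 1540 CPM in P0, 1561 and 1542 CPM in F1, and 1550 and 1604 CPM in F2. In wild type it had 1295 and 1269 CPM in untreated libraries, 1240 and 1200 CPM in P0, 1213 and 1187 CPM in F1, and 1206 and 1221 CPM in F2. All 8 damt-1 libraries lay above all 8 wild type ones, and in wild type every treated library lay below both untreated ones. The difference in wild type was -0.07 ± 0.03 in P0 (adjusted p = 0.12), and in F1 and F2 myo-3 fell by 0.09 ± 0.03 and by 0.08 ± 0.03 (adjusted p = 0.015 and 0.042). The F1 decrease was lost without the first untreated library of wild type (-0.08, adjusted p = 0.10), and the F2 decrease was held by 9 of 25 alternatives. In damt-1 the 3 differences were between -0.01 and 0.03, and the responses of the genotypes differed by 0.11 ± 0.04 in F2 (adjusted p = 0.049), a call that held in 6 of 25 alternatives.

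The single lev-11 row carried between 2 and 11 counts in the 16 libraries. It had 2 and 3 counts in untreated damt-1 libraries, 5 and 4 in P0, 11 and 10 in F1, and 6 and 5 in F2, and in wild type 4 and 7 in untreated libraries, 5 and 4 in P0, 9 and 9 in F1, and 10 and 9 in F2. At this depth the F1 rise in damt-1 of 2.05 ± 0.67 (adjusted p = 0.042) held in 4 of 23 alternatives. The row passed the filter on low counts only through the F1 libraries of damt-1, at 3.01 and 2.62 CPM. Its test thus depended on the group where it was highest, and the call there is no independent support for a rise. The row's transcript is not in the current RefSeq list, which has 19 transcripts for lev-11. Over the annotation, genes with 1 RefSeq transcript had a row in 70.5% of cases and a median of 0.109 counts per nucleotide, while genes with over 5 had one in 38.2% of cases and a median of 0.006. The gene tnt-4 has 2 RefSeq transcripts, and neither is listed.

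**Figure D3:**
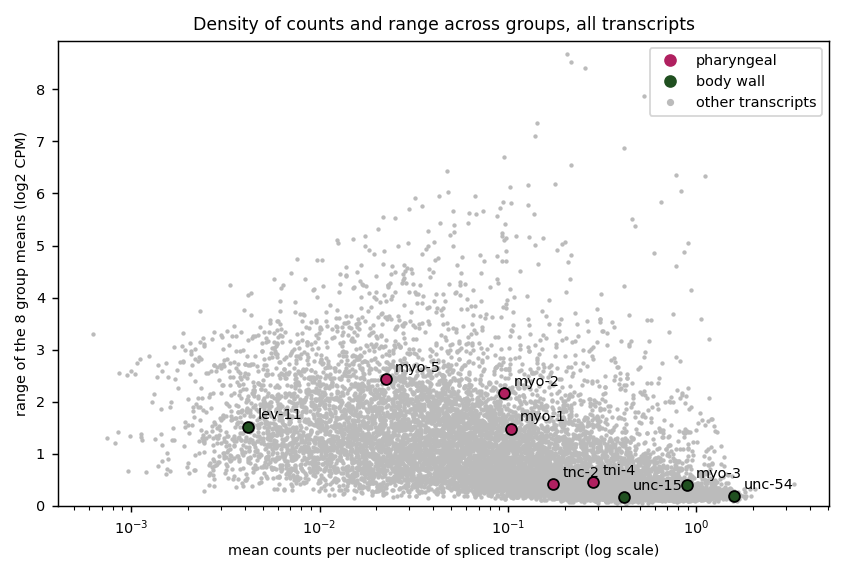
Mean counts per nucleotide of spliced transcript (horizontal axis, log scale) and the range of the 8 group means in log2 CPM (vertical axis) for all transcripts with a length (grey) and the 9 muscle genes (coloured by muscle). The body wall genes other than lev-11 lie at the dense end, where grey points have small ranges, and the pharyngeal myosins at middle to low density, where ranges are wide.

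Per length, the body wall genes other than lev-11 stood above the pharyngeal ones. The heavy chains unc-54 and myo-3 had 1.59 and 0.892 counts per nucleotide, at percentiles 99.7 and 95 of 12400 transcripts with a length, and unc-15 had 0.413. The troponins tni-4 and tnc-2 had 0.283 and 0.174, the heavy chains myo-1, myo-2 and myo-5 had 0.104, 0.0958 and 0.0225, and lev-11 had 0.00419. The library ranges of myo-1, at 0.0536 to 0.191, and of myo-2, at 0.0309 to 0.165, overlapped. So did those of tni-4 (from 0.211) and tnc-2 (0.121 to 0.216), of tnc-2 and myo-1, of myo-2 and myo-5 (0.00524 to 0.0354), and of myo-5 and lev-11 (to 0.00716), while unc-54, myo-3 and unc-15 each stood apart from the next. The median over all transcripts was 0.109 and the highest value 3.31.

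Dense transcripts as a class differed little between groups in these tables. Among the 450 transcripts with 1 or more counts per nucleotide, the range of group means had a median of 0.21 on the log2 scale, and the 0.18 of unc-54 was close to it. Between 0.3 and 1 the median was 0.33, beside 0.39 for myo-3 and 0.17 for unc-15. Between 0.1 and 0.3 it was 0.56, with a 95th percentile of 2.14, beside 1.48 for myo-1, 0.45 for tni-4 and 0.41 for tnc-2. The medians were 1.15 between 0.03 and 0.1, where myo-2 had 2.16, and 1.48 under 0.03, where myo-5 had 2.43 and lev-11 1.52. The pharyngeal heavy chains thus varied more than the median transcript of like density, and the body wall heavy chains about as much. The part of density in the contrast between the muscles was not tested.

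Raw counts of unc-54 and unc-15 varied less between libraries than the library totals did. Such evenness need not reflect even transcript levels, and a ceiling on the counts of dense transcripts was not tested. The unc-54 counts ran from 9714 to 10056 in the damt-1 libraries and from 9376 to 10053 in the wild type libraries, 1.07-fold over all 16, while library totals ranged 1.23-fold. Totals were 3541390 to 4036728 in damt-1 and 3771905 to 4365451 in wild type. The raw counts of unc-15, at 1379 to 1457 in damt-1 and 1345 to 1458 in wild type, overlapped too. The part of the library totals in the CPM differences of unc-54 and unc-15 between genotypes was not tested. Those of myo-3 did not overlap before scaling, at 5554 to 6152 in damt-1 and 4795 to 5377 in wild type.

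Within each library, counts of the pharyngeal heavy chains were also set against those of the body wall ones, whose transcripts are of nearly equal length. As unc-54 counts ranged 1.07-fold over the 16 libraries and library totals 1.23-fold, this ratio is not free of depth. Counts of myo-1, myo-2 and myo-5 together, per 1000 counts of myo-3 and unc-54, were 38.02 and 40.4 in untreated damt-1 libraries, 81.8 and 65.2 in P0, 68.2 and 71.5 in F1, and 74.0 and 67.1 in F2. In wild type they were 74.6 and 89.03 in untreated libraries, 101 and 111.6 in P0, 155 and 163 in F1, and 150.4 and 150.5 in F2. Treated libraries lay above untreated ones in both genotypes, and of the 6 treated damt-1 libraries 1 lay within the range of untreated wild type and 5 below it. The share of myo-2 in the pharyngeal heavy chain counts was 35.7% and 30.2% in untreated damt-1 libraries and 40.1% to 48.8% in all others, and that of myo-5 was 5.6% and 6.31% in untreated damt-1 libraries and 8.61% to 12.8% in all others.

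**Figure D4:**
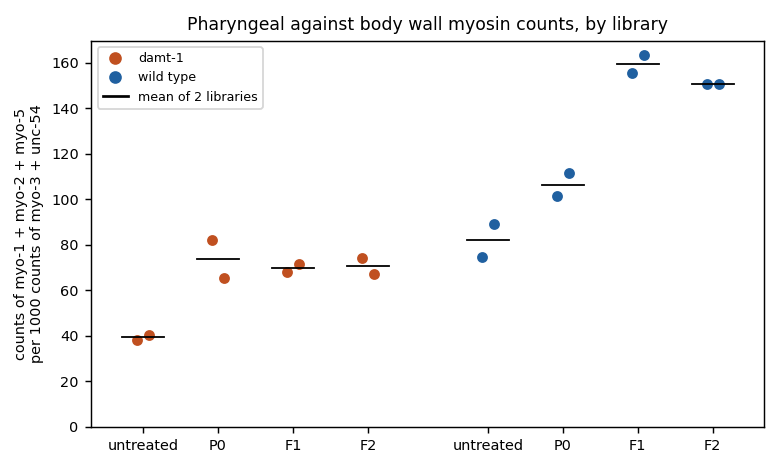
Counts of the 3 pharyngeal heavy chains per 1000 counts of the 2 body wall heavy chains (vertical axis, from 0) in each library, with the mean of each group as a bar. Untreated damt-1 libraries are lowest at 38.02 and 40.4, and the F1 and F2 libraries of wild type are highest at 150.4 to 163.

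In untreated worms the genotypes differed in the pharyngeal heavy chains and myo-3. The heavy chains were lower in damt-1, with log2 differences from wild type of -0.38 ± 0.09 for myo-1 (adjusted p = 0.0013), -1.41 ± 0.10 for myo-2 (adjusted p = 5.5e-11) and -1.82 ± 0.19 for myo-5 (adjusted p = 3.2e-08). The body wall gene myo-3 was higher by 0.27 ± 0.03 (adjusted p = 1.4e-07). That makes 3 of 5 pharyngeal genes lower and 1 of 4 body wall genes higher, where 20.3% of all transcripts were lower and 17.9% higher. The differences of unc-54 and unc-15 were both 0.09 ± 0.05 (adjusted p = 0.15 and 0.18).

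Under antimycin A the same 3 heavy chains were lower in damt-1 in each generation. The difference of myo-1 was -0.39 ± 0.08 at P0 (adjusted p = 0.00032), -1.10 ± 0.07 at F1 (adjusted p = 7.8e-12) and -0.97 ± 0.07 at F2 (adjusted p = 6.2e-11). That of myo-2 was -0.26 ± 0.08, -0.84 ± 0.07 and -0.76 ± 0.08, with adjusted p = 0.013, 1.9e-09 and 1.7e-08, and that of myo-5 was -0.39 ± 0.14, -0.75 ± 0.14 and -0.90 ± 0.14, with adjusted p = 0.034, 9.4e-05 and 1.1e-05. For myo-2 and myo-5 the gap was thus narrowest at P0. Their P0 calls were lost without the second P0 library of either genotype, under DESeq2, and with factors from transcripts under 0.2 counts per nucleotide. That of myo-5 was also lost without the first P0 library of wild type. Troponin I, tni-4, was also lower in damt-1, with differences of -0.29 ± 0.11 at F1 (adjusted p = 0.029) and -0.44 ± 0.11 at F2 (adjusted p = 0.0013). The F1 call held in 20 of 25 alternatives, and the F2 call was lost only with factors from transcripts under 0.2 counts per nucleotide.

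Of the body wall genes, myo-3 and unc-54 were higher in CPM in damt-1 in each treated generation. For unc-15 this held at F1 and F2, and lev-11 passed in none. The difference of myo-3 was 0.33 ± 0.03 at P0, 0.37 ± 0.03 at F1 and 0.38 ± 0.03 at F2 (adjusted p = 6.9e-09, 7.3e-10 and 5.6e-10). That of unc-54 was 0.13 ± 0.05, 0.16 ± 0.05 and 0.13 ± 0.05 (adjusted p = 0.036, 0.0058 and 0.024), and that of unc-15 was 0.11 ± 0.05, 0.16 ± 0.05 and 0.13 ± 0.05 (adjusted p = 0.11, 0.0096 and 0.034). Without the first F1 library of damt-1, the F1 calls of unc-54 and unc-15 were lost, and without its second F2 library or the first F2 library of wild type the F2 calls of both. The P0 call of unc-54 was lost without the second P0 library of either genotype, without the first F2 library of wild type, with counts summed per gene and under DESeq2. The F2 calls of unc-54 and unc-15 were also lost under DESeq2 and with only the groups compared, and that of unc-15 with library size as the only scaling. Before scaling, unc-54 had 10044 and 9942 counts at P0 in damt-1, above 9376 and 9540 in wild type. At F1 it had 9774 and 9966 in damt-1 and 9885 and 10053 in wild type. Its F2 counts overlapped too, as did those of unc-15 at F1 (1427 and 1419 against 1419 and 1458) and F2.

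By number of calls in CPM, 3 of 5 pharyngeal genes were lower at P0 and 4 of 5 at both F1 and F2. Of the body wall genes, 2 of 4 were higher at P0 and 3 of 4 at both F1 and F2. Over all transcripts 20.2% were lower and 15.5% higher in damt-1 at P0, 26.9% lower and 24.6% higher at F1, and 26.0% lower and 23.3% higher at F2. No pharyngeal gene was higher and no body wall gene lower in any of the 4 comparisons.

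**Figure D5:**
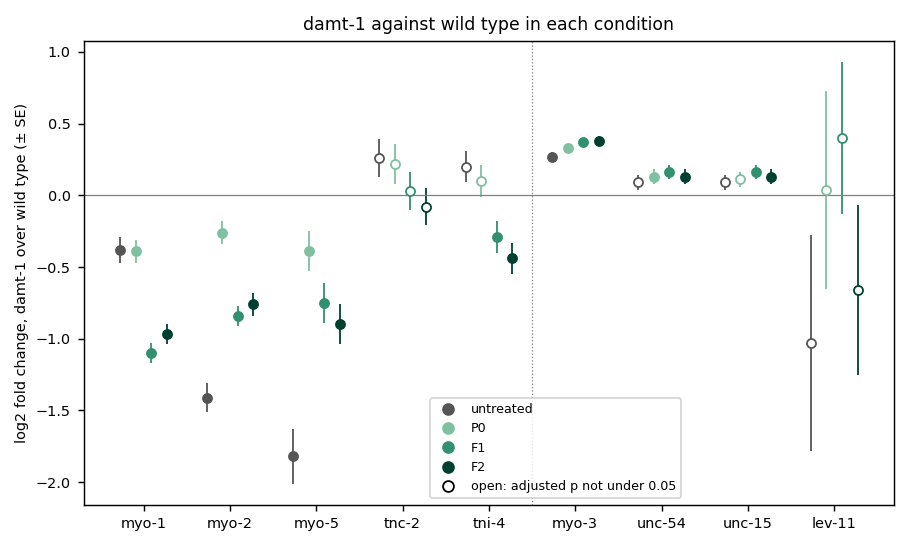
Log2 fold change of damt-1 over wild type (vertical axis) for each gene in untreated, P0, F1 and F2 worms, with SE bars and open symbols where the adjusted p is not under 0.05. Pharyngeal myosins lie below 0, myo-2 and myo-5 lowest in untreated worms, and myo-3 lies at 0.27 to 0.38.

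The tests of the difference in response called 2 of 5 pharyngeal genes at P0, both more raised in damt-1, and no body wall gene, beside 10.5% of all transcripts in that direction and 11.5% in the other. At F1 they called myo-2 and myo-5 in that direction and myo-1 and tni-4 in the other, beside 18.6% and 21.7% of all transcripts. At F2 they called the same 4 and myo-3, beside 18.6% and 21.5%.

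Later generations were also set against P0. In wild type, myo-1 was higher than in P0 by 0.69 ± 0.07 in F1 (adjusted p = 4.2e-08) and then by 0.68 ± 0.07 in F2 (adjusted p = 5.5e-08), and myo-2 by 0.54 ± 0.07 (adjusted p = 3.7e-06) and 0.42 ± 0.07 (adjusted p = 0.00012). Troponin I, tni-4, was higher in F2 by 0.36 ± 0.10 (adjusted p = 0.013), a call lost without either P0 library, without the second F2 library and under DESeq2 (adjusted p of up to 0.11). The calls were 2 of 5 pharyngeal genes in F1 and 3 of 5 in F2, all higher, and no body wall gene, while 12.2% of all transcripts were higher and 10.2% lower in F1 and 12.1% higher and 10.4% lower in F2. In damt-1, no gene of either muscle and no other transcript passed the edgeR test in F1 or F2 against P0, so 0.0% of all transcripts were higher and 0.0% lower. At an unadjusted p under 0.05 there were 555 of 12408 transcripts in F1 and 573 of 12412 in F2, 4.47% and 4.62%, and DESeq2 called 0 in both. The damt-1 F1 and F2 differences of myo-1 from P0 were -0.02 ± 0.08 and 0.09 ± 0.08, with 95% intervals of -0.19 to 0.14 and -0.07 to 0.26.

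Of 25 other genes for proteins of the contractile filaments, 16 were tested. None of these passed the test in damt-1 P0, F1 or F2 against untreated. Over all transcripts there, 8.41%, 7.69% and 7.9% rose and 5.68%, 5.53% and 5.84% fell. In wild type P0 0 were higher and 2 lower, where 13.0% of all transcripts were higher and 8.14% lower. In both F1 and F2 of wild type 2 were higher and 4 lower, beside 26.2% and 25.9% of all transcripts higher and 20.7% and 21% lower. Between genotypes 3 were higher and 1 lower in damt-1 in untreated worms, 3 and 0 at P0, 9 and 2 at F1, and 6 and 2 at F2. Of all transcripts, 17.9%, 15.5%, 24.6% and 23.3% were higher in these comparisons and 20.3%, 20.2%, 26.9% and 26.0% lower. Troponin I of body wall muscle, tni-1, fell in wild type by 0.33 ± 0.05 and 0.34 ± 0.05 in F1 and F2 (adjusted p = 1e-05 and 9.7e-06). Another troponin I, tni-3, rose by 0.34 ± 0.06 and 0.31 ± 0.06 (adjusted p = 0.00011 and 0.00043). The kinase unc-82, which organises the centre of the thick filament, fell by 1.77 ± 0.40 in F1 (adjusted p = 0.00083). The other gene that rose was unc-87, which encodes a calponin-like protein of the thin filament and is named after its values were seen. It rose by 1.76 ± 0.65 in F1 and 1.92 ± 0.64 in F2 (adjusted p = 0.03 and 0.017), at low mean levels of 4.74 and 5.32 CPM, against 1.43 CPM in untreated wild type.

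Of 15 transcripts of dense body and attachment genes, which anchor the filaments of body wall muscle to the cell membrane, none fell in damt-1 P0, F1 or F2 and 1, 1 and 2 rose. Of all transcripts, 8.41%, 7.69% and 7.9% rose there and 5.68%, 5.53% and 5.84% fell. In wild type 0, 6 and 7 fell and none rose, beside 8.14%, 20.7% and 21% of all transcripts lower. In damt-1 against wild type 4 were higher and 1 lower in untreated worms, beside 17.9% and 20.3% of all transcripts. At P0, F1 and F2, 8, 9 and 10 were higher and 1, 0 and 0 lower. Of all transcripts 15.5%, 24.6% and 23.3% were then higher and 20.2%, 26.9% and 26.0% lower. Their median differences in wild type were -0.04, -0.13 and -0.15. The actopaxin pat-6 fell by 0.23 ± 0.05 in F1 and 0.20 ± 0.05 in F2 (adjusted p = 0.00028 and 0.0013), and the integrin alpha subunit pat-2 by 0.17 ± 0.04 and 0.18 ± 0.04 (adjusted p = 0.001 and 0.00067). Of 14 excitation and calcium genes, 2, 1 and 0 rose and none fell in damt-1, and 1, 2 and 4 fell and none rose in wild type. Over all transcripts 8.41%, 7.69% and 7.9% rose and 5.68%, 5.53% and 5.84% fell in damt-1. The shares in wild type were 13.0%, 26.2% and 25.9% higher and 8.14%, 20.7% and 21% lower. Against wild type 5, 7 and 7 of the 14 genes were higher in damt-1 at P0, F1 and F2 and none lower. In wild type the calcium channel subunit ccb-1 fell by 0.25 ± 0.07 in F1 and 0.37 ± 0.07 in F2 (adjusted p = 0.0045 and 0.00016). The muscle transcription factor unc-120 fell by 0.38 ± 0.08 in F1 and 0.39 ± 0.08 in F2 of wild type (adjusted p = 0.00043 and 0.00032), and its 3 differences in damt-1 were between 0.02 and 0.04.

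Pharynx genes that encode no filament protein split by gene. Of 11 tested, 1, 1 and 0 rose and 1, 0 and 0 fell in P0, F1 and F2 of damt-1, and 1, 5 and 6 rose and 0, 2 and 3 fell in wild type. Over all transcripts 8.41%, 7.69% and 7.9% rose and 5.68%, 5.53% and 5.84% fell in damt-1. In wild type 13.0%, 26.2% and 25.9% of all transcripts rose and 8.14%, 20.7% and 21% fell. The gland gene phat-3 rose in wild type by 2.59 ± 0.18 in F1 and 2.45 ± 0.18 in F2 (adjusted p = 2.1e-11 and 7.7e-11), while phat-2 of the same family fell by 0.55 ± 0.14 and 0.64 ± 0.14 (adjusted p = 0.0024 and 0.00072). In untreated worms 4 of the 11 were higher in damt-1 than in wild type and 3 lower, where 17.9% of all transcripts were higher and 20.3% lower, with peb-1, a pharyngeal transcription factor, higher by 2.13 ± 0.31 (adjusted p = 5e-06) and phat-2 lower, at -1.18 ± 0.16 (adjusted p = 1.2e-06).

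The genes most like myo-5 over the 16 libraries, among 9094 with a mean of at least 10 CPM, were T16G1.7, vit-5, cest-1.1, cyp-37B1 and clc-25, with Pearson correlations of log2 CPM of 0.972, 0.964, 0.959, 0.956 and 0.945. These values describe libraries that share their groups. The yolk protein gene vit-5 had 54.4 to 67.0 CPM in treated damt-1 libraries, against 1.89 and 1.52 CPM in untreated ones, and 597 to 760 CPM in treated wild type libraries, against 159 and 180 CPM in untreated ones. For myo-3 the nearest were T05E12.6, amt-4, clec-5, rop-1 and lys-4, at 0.992, 0.988, 0.987, 0.984 and 0.983, and 432 transcripts exceeded 0.9, against 23 for myo-5.

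Some markers of stage and of other tissues also differed between treated and untreated worms, not always in the direction of the pharyngeal myosins. The cuticle collagen col-19, which is switched on toward adulthood, had 129 to 137 CPM in treated damt-1 libraries, against 0.54 and 0.507 CPM (2 counts each) in untreated ones. In wild type it had 86.8 to 171 CPM in treated libraries, against 234.5 and 247 CPM in untreated ones. In damt-1, col-19 was a small part of the summed level of 5 adult cuticle collagens, so this sum could hardly follow it. The sum was 1950 to 2130 CPM in treated and 1970 to 2030 CPM in untreated damt-1 libraries. In wild type this sum was 1500 to 1660 CPM in treated and 1600 to 1700 CPM in untreated libraries. In untreated worms 2 of the 5 were higher and 2 lower in damt-1, beside 17.9% and 20.3% of all transcripts. The summed level of 6 furrow collagens, which larvae make in each moult cycle, was 1360 to 1480 CPM in treated damt-1 and 1600 to 1660 CPM in untreated damt-1 libraries. In wild type it was 362 to 366 CPM in untreated libraries, 613 to 626 CPM in P0 and 1010 to 1040 CPM in F1 and F2. All 6 furrow collagens were higher in untreated damt-1 than in untreated wild type worms, with a median difference of 2.18, where 17.9% of all transcripts were higher. In wild type 5, 6 and 6 of them rose in P0, F1 and F2, beside 13.0%, 26.2% and 25.9% of all transcripts. In damt-1 4, 3 and 4 of the 6 fell and none rose, beside 5.68%, 5.53% and 5.84% of all transcripts lower.

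Markers of other tissues were counted beside all transcripts. Of all transcripts, between 7.69% and 8.41% rose and between 5.53% and 5.84% fell in P0, F1 and F2 of damt-1, and 13.0%, 26.2% and 25.9% rose and 8.14%, 20.7% and 21% fell in those of wild type. Of 6 germ line genes 3 fell in each treated group of damt-1 and 5 rose in each of wild type. All 6 were lower in damt-1 than in wild type at P0, F1 and F2, where 20.2%, 26.9% and 26.0% of all transcripts were lower. The summed level of the 6 genes was 531 to 592 CPM in treated and 723 to 728 CPM in untreated damt-1 libraries. In wild type it was 1130 to 1340 CPM in treated and 831 to 854 CPM in untreated libraries. Of 6 neuron genes 1 rose in P0 of damt-1 and none passed in its F1 or F2, and their sum was 949 to 1020 CPM in treated and 932 to 965 CPM in untreated libraries. In wild type 1, 4 and 5 of them fell in P0, F1 and F2, where their sum was 912 to 942, 777 to 808 and 801 to 803 CPM, against 1020 to 1030 CPM in untreated wild type. Of 7 intestine genes 1 rose in damt-1 F1, and 1, 1 and 1 rose and 1, 4 and 2 fell in wild type. Of 3 epidermis genes none passed in damt-1, and 1, 1 and 2 fell in wild type. Of 5 adult cuticle collagens 2, 2 and 2 rose and 1, 1 and 0 fell in damt-1, and 2, 1 and 1 rose and 1, 4 and 4 fell in wild type. All 5 were higher in damt-1 than in wild type at F1 and F2, where 24.6% and 23.3% of all transcripts were higher. The part of stage and tissue makeup in the muscle gene differences was not tested.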

How the data were processed

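The authors deposited raw counts per RefSeq transcript, whole numbers in 6 tables of 4 libraries (2 treated, 2 untreated). HTSeq 0.9.1, HISAT2 2.0.5, DESeq2 1.20.0, Trimmomatic 0.35, R 3.5.0, SAMtools 1.3.1 and the ce10 build are named in the submitters' processing notes, without their roles. Strandedness and duplicate removal are not given in the sources used here. The authors' comparison tables and their 24 sample columns were not used. Each genotype's untreated counts did not differ between its tables, and a transcript not listed in a table was left untested there.

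Counts were fitted in R 4.3.3 with edgeR 4.0.16: filterByExpr at 10 counts left 12592 transcripts, TMM factors ran from 0.978 to 1.02, and a robust quasi-likelihood model gave each group 1 mean with all 16 libraries in the fit. Adjustment was by Benjamini-Hochberg, separately in the 17 comparisons, with calls at 0.05. The common biological coefficient of variation was 2.18%. CPM use the TMM library sizes. Lengths were found for 14118 transcripts (98.1%), each that of the gene's longest spliced transcript in a current genome annotation. Current gene names come from RefSeq. Both are of another build than the counts, so no coordinates or sequences are given. The pipeline was tested on simulated data.

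All 9 listed genes are named. From each other list at most 4 genes with the smallest adjusted p over the 6 treated comparisons are named, and the 5 transcripts most like myo-5 and the 5 most like myo-3, the gene of each muscle with the widest range among those with a mean of at least 10 CPM. The gene unc-87 is named outside this rule. Members and lists were chosen with earlier results of these data known. Alternatives were other scalings, filters, a replicate block, DESeq2 1.42.0 and leaving out each library.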

Additional observations from a re-analysis of the deposited data

Results flagged for a closer look

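The following responses to antimycin A differed between damt-1 and wild type by the interaction term of the edgeR fit at an adjusted p under 0.05, given as damt-1 minus wild type on the log2 scale. The response of myo-1 was smaller in damt-1 at F1 (-0.72) and F2 (-0.59). The response of myo-2 was larger in damt-1 at P0 (1.15), F1 (0.57) and F2 (0.65), and so was that of myo-5 at P0 (1.44), F1 (1.07) and F2 (0.93). For tni-4 the difference was -0.49 at F1 and -0.65 at F2, as its level was above untreated in wild type and not in damt-1. For myo-3 it was 0.11 at F2. No group has more than 2 libraries, so no library could be judged an outlier within its group.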

How the results depend on the processing

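Of 425 recomputed counts of called muscle genes, 411 stayed within 1.5 times the reported count and 14 did not. For wild type P0 against untreated, with 2 genes called, the count was 1 with factors from transcripts under 0.2 counts per nucleotide, 1 with only the groups compared, 1 with DESeq2, and 1 to 3 when single libraries were left out. It was 3 to 5 for wild type F1, 2 to 3 for damt-1 F1 and 2 to 5 for damt-1 against wild type at P0 when single libraries were left out, and 2 with DESeq2 in the last. For untreated damt-1 against wild type, with 4 genes called, it was 8 with factors from transcripts under 0.2 counts per nucleotide, where unc-54, unc-15, tnc-2 and tni-4 also passed as higher in damt-1. Those factors shifted the median of all transcripts by up to 0.245, in damt-1 against wild type at F1, and by -0.141 in wild type F1 against untreated, where unc-54 then read -0.18 (adjusted p = 0.034) beside a median of -0.115 over all transcripts. Every other scaling moved a median by at most 0.031.

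For single genes, 3643 recomputed differences kept their call, 127 lost it, 23 gained it and 0 changed sign with a call. The replicate block lost 3 of 153 and gained 0, and the replicate numbers did not pair the libraries (correlations of -0.058 to 0.036 over 28 pairs of groups). The filter at 10 CPM removed lev-11. With 2 libraries per group, differences of troponin genes near 0.2 and any of lev-11 are limited by depth and spread.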
